A study of Mus musculus with 2 samples.

Results

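The HoxB cluster is the run of homeobox genes on mouse chromosome 11, taken here as Hoxb1, Hoxb2, Hoxb3, Hoxb4, Hoxb5, Hoxb6, Hoxb7, Hoxb9 and Hoxb13. A probe belonged to the cluster when its gene name, or the current symbol of one of its listed accessions, was one of these 9 genes. That rule found 8 probes for 8 genes among 41013 probes on the array, 1 probe per gene. No probe matched Hoxb3, which was not analysed here. RNA came from the posterior part of mouse embryos at 13 somites. The mutant pool held tissue of 7 Cdx2+/-Cdx4-/- embryos, which carry 1 working copy of Cdx2 and none of Cdx4, and the wildtype pool held tissue of 7 embryos. Both pools were cut at the level of the last somite boundary and hybridised together on 2 dual-colour Agilent arrays with exchanged dyes. Array 1 carried the mutant pool in Cy5 and array 2 carried it in Cy3. The labels describe 1 pool per genotype, so the arrays are the same comparison seen in both dye orientations. No test between genotypes was possible, and each error below is the technical SD between the 2 arrays.

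Hox genes encode homeodomain transcription factors that give cells their position along the head-to-tail axis. They lie in clusters in which gene order follows both the order of activation and the front limit of expression, a property called collinearity. In the HoxB cluster Hoxb1 lies at the early, anterior end and Hoxb13 at the late, posterior end. Cdx proteins are caudal-type homeodomain factors of the posterior embryo that bind Hox regulatory DNA, and Hox proteins bind DNA with partners of the PBX and MEIS families. The comparison asked how transcripts of the posterior embryo differ when Cdx function is reduced.

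The HoxB transcripts differed little between the pools. Hoxb1 was the highest of the 8 members in the mutant, 1.44-fold above wildtype, with nearly the same ratio on both arrays. Hoxb7 and Hoxb6 were the lowest, 1.21-fold and 1.11-fold below wildtype, and both arrays had the same sign. Hoxb13 lay near 0 on both arrays, and for Hoxb2, Hoxb4, Hoxb5 and Hoxb9 the arrays had opposite signs.

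A gene was counted as higher or lower when its mutant-over-wildtype ratio reached 1.5-fold, or 0.585 on the log2 scale, in the same direction on each array. By that rule 0 of the 8 HoxB genes were higher and 0 were lower. Over all 26157 genes detected, 55 were higher, or 0.21%, and 60 were lower, or 0.229%. At 1.3-fold on each array 1 HoxB gene, Hoxb1, was higher and 0 were lower, where 140 genes (0.535%) were higher and 196 genes (0.749%) lower over the array. The median log2 ratio of the 8 HoxB genes was 0.02, with -0.14 on array 1 and 0.16 on array 2. The median over all detected genes was 0.00, with 0.01 and -0.02 on the arrays. Without Hoxb1 the HoxB median was 0.00, so the arrays differed from each other by more than the median differed from 0.

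The range of brightness and of technical spread sets how far each gene can be read. Between the arrays the pooled SD of the log2 ratio was 0.19 over all detected genes, and 47.7% of genes had the same sign on both. Pearson's correlation of the ratios of the 2 arrays was 0.07, so agreement between the dye orientations was weak over the array as a whole. From 77.4% to 82.5% of the 41174 gene spots were well above background in a channel. The median signal of a channel was 146 to 159 intensity units, against 91.3 to 113 at negative control spots. As a check of the labels, Cdx4 was 5.75-fold lower in the mutant pool (log2 ratio -2.52 ± 0.12). Cdx2, with 1 working copy in the mutant, had -0.05 ± 0.09, so its value did not show the loss of a copy. Cdx1 had 0.19 ± 0.09. Among HoxB genes, Hoxb1, Hoxb6 and Hoxb2 were far above background, while Hoxb4, Hoxb5 and Hoxb13 lay close to it.

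**Figure D1:**
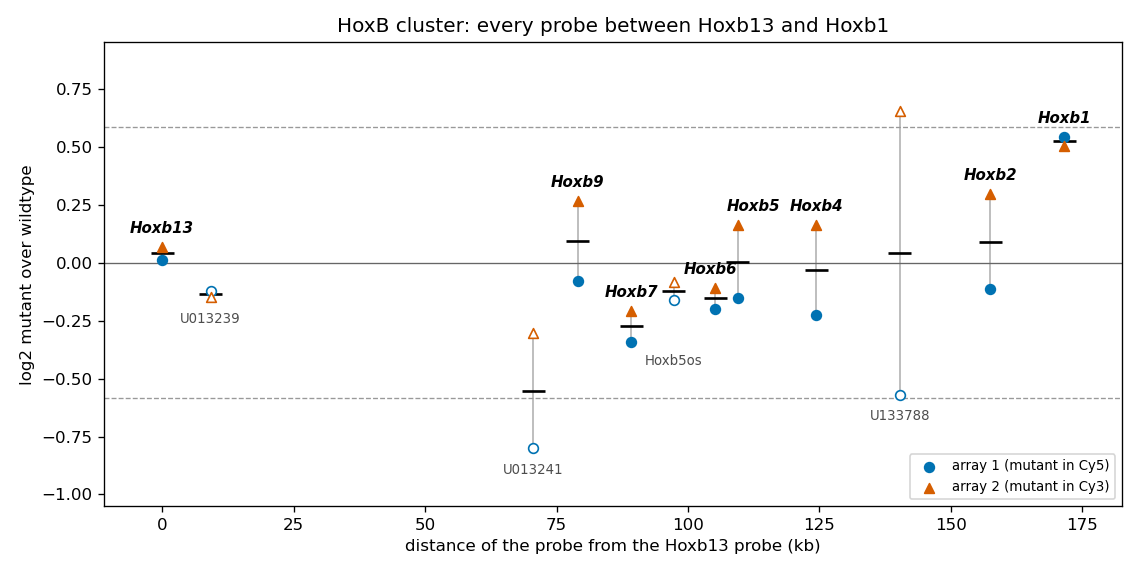
Log2 ratio of mutant over wildtype (vertical axis) for every probe from Hoxb13 to Hoxb1, placed by its distance in kb from the Hoxb13 probe. Filled symbols are HoxB genes, open symbols other probes in the cluster, circles array 1, triangles array 2, short bars the mean, and dashed lines 1.5-fold. Hoxb1 sits at 0.54 and 0.50, apart from the other members, whose means lie between -0.27 and 0.09.

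The probes lay in the order of the genes, across 171.6 kb of chromosome 11 in the coordinates of the files. The files do not name a genome build, and no annotation of their build was used, so exon and UTR positions are not given. Hoxb13 stood apart from the rest, with its probe 79.0 kb from that of Hoxb9, the next member. The other 7 members lay closer together, at 89.2 kb for Hoxb7, 105.2 kb for Hoxb6, 109.5 kb for Hoxb5, 124.4 kb for Hoxb4, 157.5 kb for Hoxb2 and 171.5 kb for Hoxb1, each counted from the Hoxb13 probe.

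Promoter sequence is shown for Hoxb1, the member with the highest ratio, and for Hoxb4, the only other member of the 9 listed in the RefSeq promoter table used here (GRCm38.p6). Each window runs from 250 to 21 bases before the annotated start, on the plus strand. The Hoxb1 window is chr11:96365508-96365737 and the Hoxb4 window is chr11:96318017-96318246. These coordinates belong to GRCm38.p6 and not to the build of the files. Capitals mark matches to the letters TGATNNAT, a PBX-HOX recognition motif, searched on both strands together with TTTATG, a CDX recognition motif.
Hoxb1: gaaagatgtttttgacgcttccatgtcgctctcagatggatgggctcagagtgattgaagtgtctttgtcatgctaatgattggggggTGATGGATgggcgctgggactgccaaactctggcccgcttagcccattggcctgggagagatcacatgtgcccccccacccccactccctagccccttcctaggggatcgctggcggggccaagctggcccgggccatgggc
Hoxb4: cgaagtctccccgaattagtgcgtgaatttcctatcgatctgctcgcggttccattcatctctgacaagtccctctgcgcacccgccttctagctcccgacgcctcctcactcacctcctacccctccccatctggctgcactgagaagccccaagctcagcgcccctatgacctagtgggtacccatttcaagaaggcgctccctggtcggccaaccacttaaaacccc
The Hoxb1 window held 1 match to TGATNNAT, from 162 to 155 bases before the start, and 0 to TTTATG. The Hoxb4 window held 0 of either. Over 32851 promoter windows of the same length, 7.26% held TGATNNAT and 10.2% held TTTATG. A match describes letters and not a site of binding. The G and C share was 60% in the Hoxb1 window and 58.3% in the Hoxb4 window.

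Hoxb1 specifies the identity of a hindbrain segment and is also active early in the posterior embryo. Its probe spans 96038713 to 96038772 on chromosome 11. On the log2 scale after normalization its level in the mutant pool was 11.55 on array 1 and 11.27 on array 2, against 11.01 and 10.76 in wildtype. Both mutant levels lay above both wildtype levels. Its log2 ratio was 0.54 on array 1 and 0.50 on array 2, with a mean of 0.52 ± 0.03. For scale, the pooled SD between arrays was 0.16 over 1060 genes of like brightness, within 0.5 log2 units of Hoxb1. Before any correction the Hoxb1 spot read 4131 intensity units for mutant and 1666 for wildtype on array 1, and 1752 and 2430 on array 2. In those uncorrected values Cy5 was the brighter dye on both arrays, whichever pool it carried. When each array was centred on its median in place of the intensity-dependent loess, the Hoxb1 mean was 0.44, but array 1 gave 1.05 and array 2 gave -0.16. The arrays then had opposite signs, and Hoxb1 no longer reached 1.3-fold on both.

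Hoxb1 stood 0.43 above the next highest member, Hoxb9. The other 7 members spanned 0.37 in all on the log2 scale. Its neighbour Hoxb2, a hindbrain gene and known target of Hoxb1 protein, had levels of 9.54 in mutant and 9.65 in wildtype on array 1, and 9.72 and 9.43 on array 2. The pools overlapped and their order changed between arrays. The Hoxb2 log2 ratio was -0.12 on array 1 and 0.30 on array 2, a mean of 0.09 ± 0.29, from a probe at 96024663 to 96024722. Hoxb1 exceeded Hoxb2 by 0.66 on array 1 and by 0.21 on array 2. The Hoxb2 spot was bright, at 649 to 1013 intensity units, and genes of like brightness had a pooled SD of 0.14 between arrays.

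**Figure D2:**
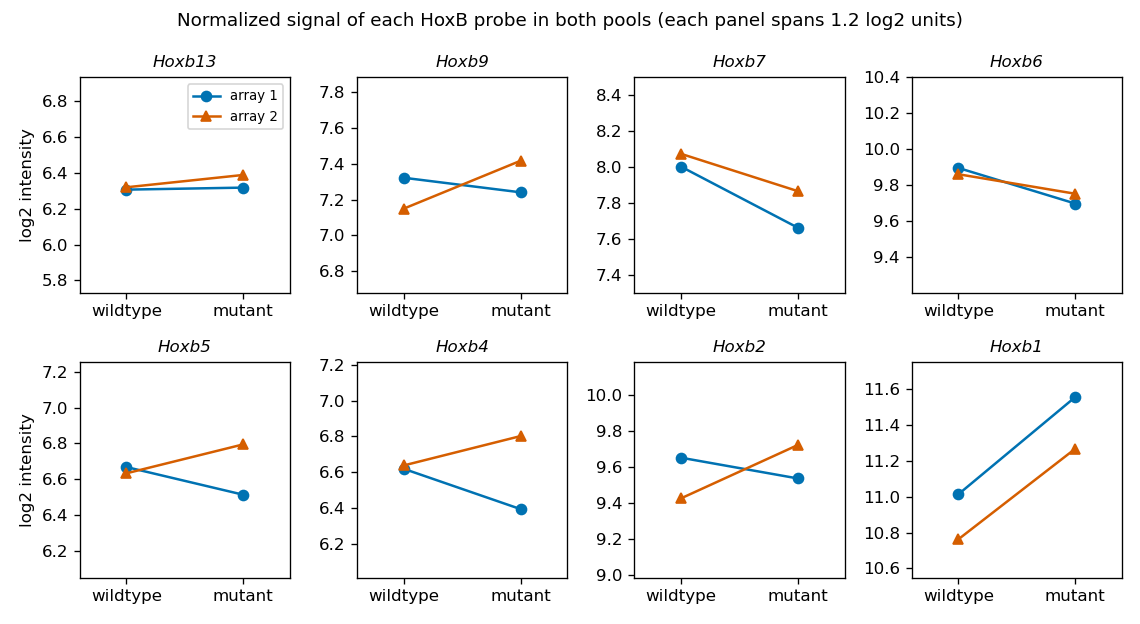
Normalized log2 intensity (vertical axis) of each HoxB probe in the wildtype and mutant pools, 1 panel per gene in cluster order, with each line joining the pools on 1 array. Both lines rise for Hoxb1, both fall for Hoxb6 and Hoxb7, and the lines go opposite ways for Hoxb2, Hoxb4, Hoxb5 and Hoxb9.

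Hoxb4 helps pattern the neck vertebrae and can expand blood stem cells when supplied in excess. Its levels were 6.39 in mutant and 6.62 in wildtype on array 1, and 6.80 and 6.64 on array 2. The mutant pool was thus the lowest and the highest of the 4 values. For Hoxb4 the log2 ratio was -0.22 on array 1 and 0.16 on array 2, a mean of -0.03 ± 0.27. The probe, at 95991573 to 95991632, gave 127 to 147 intensity units, little above the negative control spots. Genes of like brightness had a pooled SD of 0.21 between arrays.

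Hoxb5 acts in limb and shoulder position and in the neural crest of the gut. Its levels were 6.51 in mutant and 6.67 in wildtype on array 1, and 6.79 and 6.63 on array 2. Again the mutant pool gave both the lowest and the highest value. For Hoxb5 the log2 ratio was -0.15 on array 1 and 0.16 on array 2, with a mean of 0.00 ± 0.22, from a probe at 95976651 to 95976710. The spot read 135 to 146 intensity units, as dim as that of Hoxb4.

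Hoxb6 is a gene of the trunk and of the lateral mesoderm. Its levels were 9.70 in mutant and 9.90 in wildtype on array 1, and 9.75 and 9.86 on array 2. Both mutant levels lay below both wildtype levels. The log2 ratio was -0.20 on array 1 and -0.11 on array 2, a mean of -0.15 ± 0.06. Genes of like brightness had a pooled SD of 0.14 between arrays, about as large as this mean. The probe spans 95972372 to 95972431, and with median centring its arrays gave 0.26 and -0.71, so the shared sign ended.

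Hoxb7 is a trunk gene whose promoter is widely used to mark the ureteric bud. Its levels were 7.66 in mutant and 8.0 in wildtype on array 1, and 7.86 and 8.07 on array 2. Both mutant levels lay below both wildtype levels. The log2 ratio was -0.34 on array 1 and -0.21 on array 2, a mean of -0.27 ± 0.09, the lowest of the 8 members. The probe, at 95956377 to 95956436, lists accessions of both Hoxb7 and its neighbour Hoxb8, and the files name it Hoxb7. Signal from the neighbouring gene cannot be told apart. Without Hoxb7 the median of the remaining 7 genes was 0.04.

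Hoxb9 contributes to the pattern of the ribs. Its levels were 7.24 in mutant and 7.32 in wildtype on array 1, and 7.42 and 7.15 on array 2. The pools overlapped. Ratios on the log2 scale were -0.08 on array 1 and 0.27 on array 2, a mean of 0.09 ± 0.25, from a probe at 95946190 to 95946249.

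Hoxb13 is a tail bud gene that limits the length of the spinal cord and tail. Its levels were 6.32 in mutant and 6.31 in wildtype on array 1, and 6.39 and 6.32 on array 2. The 4 values lay within the narrowest range of the cluster. For Hoxb13 the log2 ratio was 0.01 on array 1 and 0.07 on array 2, a mean of 0.04 ± 0.04, from a probe at 95867177 to 95867236. It was the dimmest member, at 118 to 129 intensity units, and the mutant channel of array 2 was the single one of its 4 channels not flagged as well above background.

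Hoxb2, Hoxb4, Hoxb5 and Hoxb9 were all below 0 on array 1 and above 0 on array 2. In each of these 4 genes the Cy3 channel was thus the relatively brighter one on both arrays after normalization. For 5 of the 8 members the mean ratio was smaller than its own SD. From lowest to highest mean the order was Hoxb7, Hoxb6, Hoxb4, Hoxb5, Hoxb13, Hoxb2, Hoxb9 and Hoxb1. Apart from Hoxb1, neighbours in this order had overlapping ranges of mean ± SD. Spearman's rho between position, counted from Hoxb13 to Hoxb1, and mean ratio was 0.29 over the 8 genes, as a description of genes on the same arrays. It was -0.07 without Hoxb1 and 0.43 without Hoxb13, so any order along the cluster rested on the end gene.

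**Figure D3:**
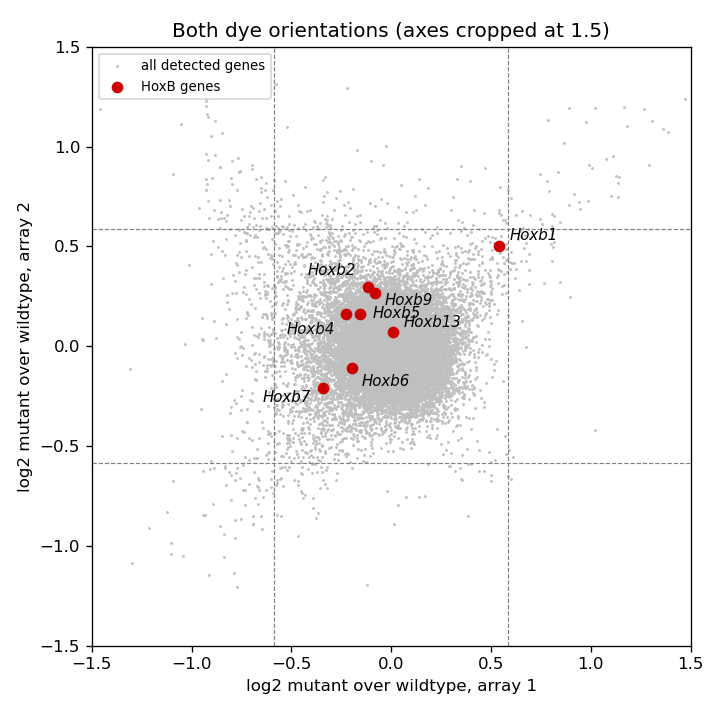
Log2 ratio of mutant over wildtype on array 1 (horizontal axis) against array 2 (vertical axis) for the 26157 detected genes (grey) and the 8 HoxB genes (red), with dashed lines at 1.5-fold and 17 genes beyond the plotted limit of 1.5. Hoxb1 lies near the upper right corner formed by the lines and the other HoxB genes lie within the central cloud.

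Of the probes between Hoxb13 and Hoxb1 that name no HoxB gene there were 4. Hoxb5os, a transcript named for the strand opposite Hoxb5, was the brightest of them. Its levels were 11.62 in mutant and 11.78 in wildtype on array 1, and 11.48 and 11.56 on array 2, from a probe at 95964501 to 95964560. The log2 ratio was -0.12 ± 0.06, the same sign as Hoxb6 and Hoxb7, the genes on either side of its probe. With median centring its arrays gave 0.36 and -0.78.

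The other 3 probes match cDNA clones or no named transcript. The clone probe U013241, between Hoxb13 and Hoxb9 at 95937728 to 95937787, had the lowest mean in the cluster, with log2 ratios of -0.80 and -0.30 (mean -0.55 ± 0.35). It was 1.47-fold lower and did not reach 1.5-fold on array 2. The clone probe U013239, at 95876383 to 95876442, had -0.12 and -0.15, a mean of -0.13 ± 0.02. The probe U133788, between Hoxb4 and Hoxb2 at 96007472 to 96007531, had -0.57 on array 1 and 0.65 on array 2. Its mean of 0.04 ± 0.87 therefore gives no direction.

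Outside the cluster, 25 of 30 genes with a probe within 500 kb of the outermost HoxB probes were detected, and 0 passed the size rule. Their median log2 ratio was 0.00, with 0.01 over the 14 genes on the Hoxb13 side and -0.01 over the 11 on the Hoxb1 side. Means ran from -0.53 to 0.22. Those with the largest absolute means were Abi3, at -0.79 and -0.27 (mean -0.53 ± 0.37), and B130006D01Rik, at -0.30 and -0.42 (mean -0.36 ± 0.09), both on the Hoxb13 side. On the Hoxb1 side the highest was Cbx1, a heterochromatin protein gene, at 0.22 ± 0.05, below the 0.52 of Hoxb1.

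**Figure D4:**
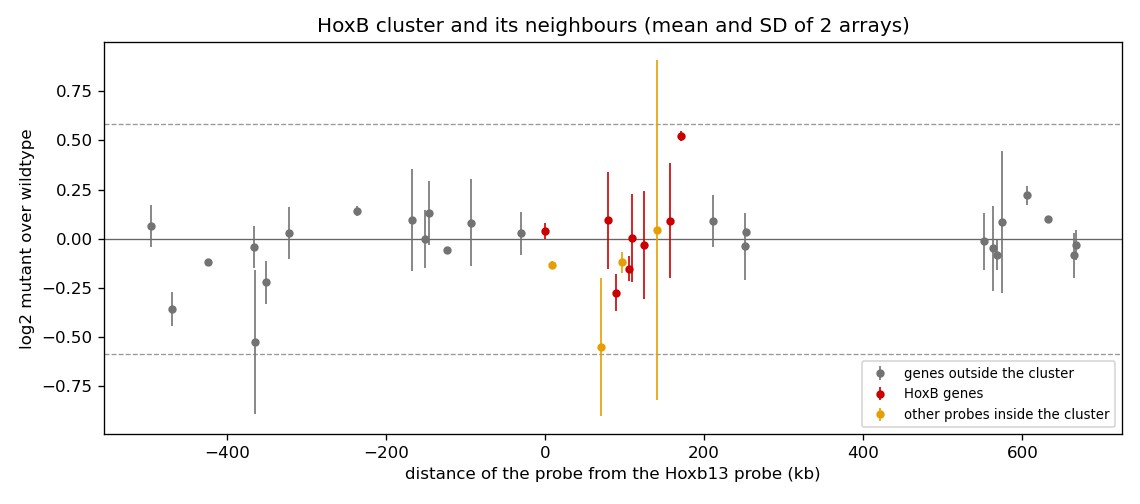
Mean log2 ratio of mutant over wildtype (vertical axis) with the SD of the 2 arrays as bars, by distance in kb from the Hoxb13 probe, for HoxB genes (red), other probes inside the cluster (orange) and detected genes within 500 kb of it (grey). Dashed lines mark 1.5-fold. Hoxb1 is the highest point of the region, at 0.52.

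Paralogues are genes of the other Hox clusters that share a position number with a HoxB gene. Of 21 listed, 18 were detected and 0 passed the size rule. Their median log2 ratio was -0.08, with 4 above 0 and 10 below 0 on both arrays, where the HoxB cluster had 2 and 2. Over all 26157 detected genes, 6099 were above 0 on both arrays and 6378 were below 0 on both. By cluster the median was -0.05 over 8 HoxA genes, 0.01 over 5 HoxC genes and -0.27 over 5 HoxD genes, beside 0.02 over 8 HoxB genes. The HoxD median moved to -0.10 when the median over a gene's probes was used. No difference between clusters was tested.

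In paralogue group 1, Hoxb1 (0.52 ± 0.03) was above Hoxd1, at -0.10 and -0.45 (mean -0.27 ± 0.25). The Hoxb1 ratio was the higher of this pair on each array. In group 2, Hoxa2 had 0.32 and 0.23 (mean 0.27 ± 0.06), inside the spread of Hoxb2. In group 4, Hoxa4 had 0.01 ± 0.36, Hoxc4 -0.35 ± 0.17 and Hoxd4 -0.45 ± 0.15, beside -0.03 ± 0.27 for Hoxb4. In group 5, Hoxa5 had -0.29 ± 0.20 and Hoxc5 0.01 ± 0.28, beside 0.00 ± 0.22 for Hoxb5. Hoxc4 and Hoxd4 were below 0 on both arrays, and Hoxb4 was not.

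In group 6, Hoxb6 (-0.15 ± 0.06) lay between Hoxa6, at 0.00 ± 0.03, and Hoxc6, at -0.65 and -0.38 (mean -0.51 ± 0.19). In group 7, Hoxb7 (-0.27 ± 0.09) and Hoxa7, at -0.41 and -0.21 (mean -0.31 ± 0.14), had nearly the same mean and the same sign on both arrays. In group 9, Hoxa9 had -0.31 ± 0.12, Hoxc9 0.02 ± 0.01 and Hoxd9 0.11 ± 0.18, beside 0.09 ± 0.25 for Hoxb9. In group 13, Hoxa13 had -0.10 ± 0.01 and Hoxd13 -0.57 ± 0.34, beside 0.04 ± 0.04 for Hoxb13. Group 8, whose HoxB gene was not analysed here, held Hoxc8 at 0.25 ± 0.33 and Hoxd8 at -0.05 ± 0.06. Hoxa3 and Hoxc13 were not detected and Hoxd3 had no matching probe. Under median centring Hoxa7, Hoxa9, Hoxd1 and Hoxd4 had opposite signs on the arrays, as Hoxb1 and Hoxb6 had.

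**Figure D5:**
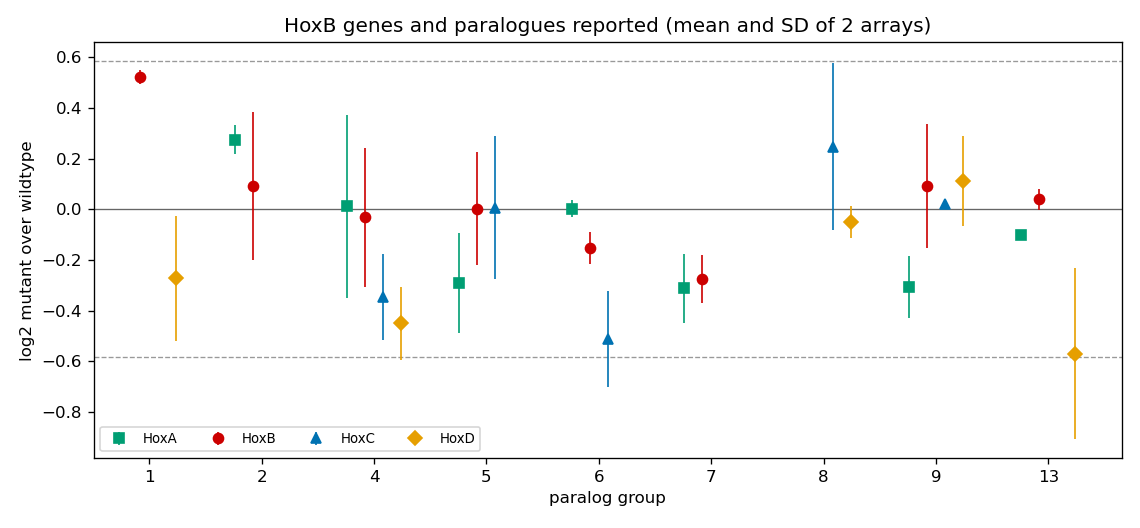
Mean log2 ratio of mutant over wildtype (vertical axis) with the SD of the 2 arrays as bars, by paralogue group (horizontal axis), for HoxA (squares), HoxB (circles), HoxC (triangles) and HoxD (diamonds) genes reported here. Dashed lines mark 1.5-fold. Hoxb1 has the highest mean of the genes shown.

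Factors that act with or on HoxB genes were read from lists. Of 9 Hox cofactor genes, all detected, 1 was higher and 0 were lower, with a median of 0.02. Meis1, a partner of Hox and PBX proteins, had log2 ratios of 0.85 and 0.62, a 1.66-fold rise, which was lost with median centring. Of 16 upstream transcription factors and signals, all detected, 0 were higher and 1 was lower, Cdx4, with a median of -0.05. Of 10 detected genes of retinoic acid supply and clearance, a signal that switches on anterior Hox genes, 0 were higher and 1 was lower, with a median of 0.06. That gene was Cyp26a1, the enzyme that clears retinoic acid in the tail bud, at 2.06-fold lower (log2 ratio -1.04 ± 0.08). Of 22 detected Polycomb and trithorax genes, whose products silence and maintain Hox genes, 0 passed in either direction. Their median was 0.01, and the largest means were those of Phc1 (0.24 ± 0.04) and Ezh2 (0.23 ± 0.09). Ezh2 and Phc1 each had opposite signs on the arrays with median centring.

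In pooled tissue, fewer cells of a type and less RNA per cell cannot be told apart. Beside the Hoxb1 ratio stood higher summed signal of several marker lists in the mutant pool, though not every marker in them was higher. Of 4 detected hindbrain markers of 5, Gbx2 was higher by 1.76-fold, the median log2 ratio was 0.09, and the summed signal was 1166 and 1207 in mutant against 763 and 840 in wildtype. The Gbx2 call was lost with median centring. Egr2 (0.01 ± 0.10), which marks hindbrain segments, was dim, and 1 marker of the list was not detected. Of 6 detected neural tube markers of 8, Sox2 was higher by 1.75-fold, with a median of 0.23 and summed signals of 2795 and 3265 in mutant against 2501 and 2905 in wildtype. The Sox2 call was also lost with median centring. On both arrays 3 of these 6 markers were above 0 and 2, Pax6 and Nkx6-1, were below 0. For comparison, 6099 of all 26157 detected genes were above 0 on both arrays and 6378 were below 0. Of 5 detected somite markers of 7, Meox1, Tcf15, Foxc1 and Foxc2 were higher, the median was 1.35, and the sums were 4990 and 4917 against 2868 and 3015. Pax3, the brightest of the 5, did not share this rise and had 0.02 ± 0.04. Uncx and Pax1 were not well above background. Of 7 presomitic mesoderm markers, Pcdh8 and Dll1 were higher, the median was 0.08, and the sums were 4199 and 3889 against 3489 and 2959. On both arrays 4 of the 7 were above 0 and 1, Msgn1, was below 0 (-0.10 and -0.15). Tbx6 had 0.06 ± 0.16. Dll1 was lost with median centring, and Pcdh8 was kept. The part of these tissues in the Hoxb1 ratio was not tested.

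Beside the lower Hoxb6 and Hoxb7 values stood lower summed signal of the tail bud and endothelium lists. Of 7 detected tail bud and primitive streak markers 0 were higher and 1, Cyp26a1, was lower, with a median of -0.46. Their summed signals were 7102 and 7359 in mutant against 10312 and 10357 in wildtype. On both arrays 4 of the 7 were below 0 and 1, Fgf8, was above 0 (0.02 and 0.18). T, the brightest of them, had -0.49 ± 0.03, but with median centring its arrays gave 0.03 and -1.22. Under that setting Wnt3a (-0.03 and -1.01) and Wnt5a (-0.17 and -0.99) stayed below 0. Of 7 detected endothelium markers 0 were higher and 2, Cldn5 and Sox18, were lower, and all 7 were below 0 on both arrays. For comparison with both lists, 6378 of all 26157 detected genes were below 0 on both arrays and 6099 were above 0. Sox18 was lost with median centring and with no background subtraction, which left 1 gene, Cldn5. The median was -0.42, and the sums were 2240 and 2118 in mutant against 3410 and 3455 in wildtype. The part of these tissues in the Hoxb6 and Hoxb7 values was not tested.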

How the data were processed

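Posterior tissue was profiled on 2 dye-swapped arrays. The deposited intensity values are mean spot brightness and median local background per channel, uncorrected, per the file headers. The scanner software also wrote a log10 ratio of Cy5 to Cy3, per the file headers, which served as an alternative. For Agilent Feature Extraction the submitters' processing notes give version 9.5.3 and the file headers give 7.5.1. Signals were corrected with normexp (offset 50) and loess in limma 3.58.1 (R 4.3.3), with control spots at weight 0. An offset shrinks the ratios of dim genes. The dyes in the labels set the direction, mutant over wildtype. Spots flagged as non-uniform were left out (205 on array 1 and 90 on array 2), and spots of a probe were averaged. A gene took the value of its brightest detected probe, detection being the software's flag for signal well above background in the same genotype on both arrays. Levels are per channel after loess and Aquantile. The number of arrays limits the precision, and whether the same extracts were labelled again for the swap is not stated. Gene names were updated through accessions and symbols of a RefSeq table (GRCm38.p6): 19435 probes by accession, 3620 by symbol and 2908 by synonym. Another 345 matched several genes and kept the files' name because it was among them, as for Hoxb7. Named genes were the HoxB members, other probes in the cluster, its paralogues, Cdx genes, and from each list or flank the members past the size rule or those with the largest ratios. Cbx1, Egr2, Pax3 and other single markers were added to these names with their values known. The members and lists were chosen with earlier results of these data known. Values of some single genes on the lists are left out of the text. The steps were tested on simulated dye-swapped arrays. Alternatives changed the background, normalization, probe choice, filters, arrays and size threshold.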

Additional observations from a re-analysis of the deposited data

How the results depend on the processing

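The count of HoxB genes past the size rule was 0 in both directions under each alternative run except 1.3-fold on each array, where 1 gene, Hoxb1, was higher. The HoxB median ran from -0.09 with the scanner software's ratio to 0.03 with an offset of 16, and was -0.14 and 0.16 on single arrays. For single members, 4 of the alternatives with both arrays changed any value, and 28 of their 32 values moved by less than the SD between arrays. The other 4 were Hoxb1 (0.44) and Hoxb6 (-0.23) with median centring, and Hoxb13 (-0.06) and Hoxb7 (-0.37) with the software's ratio. Over all genes, 55 higher and 60 lower became 27 and 16 with median centring, and 167 and 191 with the software's ratio. They became 140 and 196 at 1.3-fold, and 20 and 7 at 2-fold. With an offset of 16 the lower count was 91, and with no background subtraction it was 38. Leaving out an array gave 93 to 258 higher and 127 to 378 lower. With median centring 62.8% of the calls were higher, against 47.8%. The causes of these shifts were not tested. No paired analysis was possible because there is 1 pool per genotype. Hoxb4, Hoxb5 and Hoxb13 had signal near background.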

Other observations

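In the remaining tissues no marker passed the size rule. Of 7 lateral plate and intermediate mesoderm markers, 6 gut endoderm markers, 4 detected surface ectoderm markers and 5 detected primitive blood markers, 0 passed the size rule in either direction. The medians of the log2 ratio were 0.04, 0.08, 0.27 and -0.10 in that order. Wnt6, a Wnt ligand of the surface ectoderm, had the highest mean among these markers, 0.53, with 0.52 and 0.54 on the arrays. Hand2, a transcription factor of the lateral plate and heart, had -0.33 and -0.45.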
